A study of Mus musculus with 8 samples.

Results

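Platelet and megakaryocyte genes were followed in sorted mouse cells that carry neither CD4 nor CD8 on their surface, from the thymus and from the spleen, by Affymetrix expression array. The 8 genes were Pf4, Ppbp, Gp5, Gp1bb, Gp9, Itga2b, Clec1b and Treml1, and all probe sets that the array's annotation pairs with one of these symbols alone were taken, which gave 9 of the 22626 probe sets that are not array controls. Gp1bb had 2 probe sets, called here the brighter and the dimmer, and each other gene had 1. A further probe set was annotated to both Septin5 and Gp1bb and was left out of every count. Values are log2 expression levels, so a difference of 1 is a 2-fold difference, and levels of different probe sets are not comparable with each other.

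Each of 4 groups held 2 arrays, numbered 1 and 2 by their titles. The groups were FITC-positive spleen cells (thymus emigrants) of mice given TCDD, emigrants of mice given corn oil, FITC-positive thymus cells (thymocytes) of mice given TCDD, and thymocytes of mice given corn oil. TCDD (2,3,7,8-tetrachlorodibenzo-p-dioxin) activates the aryl hydrocarbon receptor, AhR, and was injected intraperitoneally at 10 µg/kg. All mice were female C57BL/6 aged 6 to 8 weeks, all had FITC injected into the thymus 5 days after treatment to mark thymus cells, and cells were sorted 24 h after that. No genetic change is labelled in any group. Whether an array holds a single mouse or a pool is not given, so the p-values below measure the spread between these arrays, which may be technical.

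Platelets shed from megakaryocytes lack a nucleus and carry RNA that the megakaryocyte made. Their granules store the chemokines encoded by Pf4 and Ppbp, and their surface holds the von Willebrand factor receptor built from the products of Gp5, Gp1bb, Gp9 and a further glycoprotein Ib chain, the fibrinogen receptor that contains the Itga2b product, and the podoplanin receptor encoded by Clec1b. GATA and ETS family transcription factors are known regulators of these genes. Neither thymocytes nor T cells are known for this set of genes, and spleen, where emigrants were sorted, is rich in platelets and in mice also holds megakaryocytes.

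Among the 9 probe sets, Pf4 varied most from array to array and Itga2b least. Pf4 was about 4-fold higher on average in TCDD emigrants than in oil emigrants, with no overlap between the TCDD and oil arrays. In 3 of the 4 groups, however, the arrays differed from each other by a similar amount, and the difference did not pass the test. Between emigrant arrays of the same number, the TCDD minus oil difference of Pf4 was 1.83 for number 1 and 2.15 for number 2. With the replicate number in the model it did not pass the adjusted p either. The genes of the receptor complexes stayed within narrow ranges, and Ppbp, which lies next to Pf4 on chromosome 5, did not follow Pf4. None of these levels was tested against background. Gp5 and the dimmer Gp1bb probe set lay below the array median on all 8 arrays. No probe set of the 8 genes passed an adjusted p of 0.05 in any of the 7 comparisons made (limma with Benjamini-Hochberg adjustment over all 22626 probe sets).

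The promoters of Pf4 and Ppbp are shown because these neighbours, whose start sites lie 3917 bases apart on the same strand, had unlike patterns over the arrays. Both are RefSeq sequences of build GRCm38.p6 from 250 bases before to 50 bases after the annotated start, 5′ to 3′, at chr5:90772185-90772484 for Pf4 and chr5:90768268-90768567 for Ppbp, both on the + strand. Capitals mark matches on either strand to a GATA motif (AGATAA, or else AGATAG, or else TGATAA, or else TGATAG), the AhR core motif GCGTG or the TATA box TATAAA.
Pf4: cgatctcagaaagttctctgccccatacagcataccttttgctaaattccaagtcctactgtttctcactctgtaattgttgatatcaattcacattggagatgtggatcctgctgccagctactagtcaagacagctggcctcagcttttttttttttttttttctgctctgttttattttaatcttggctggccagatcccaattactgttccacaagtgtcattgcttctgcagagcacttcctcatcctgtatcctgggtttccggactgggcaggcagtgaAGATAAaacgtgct
Ppbp: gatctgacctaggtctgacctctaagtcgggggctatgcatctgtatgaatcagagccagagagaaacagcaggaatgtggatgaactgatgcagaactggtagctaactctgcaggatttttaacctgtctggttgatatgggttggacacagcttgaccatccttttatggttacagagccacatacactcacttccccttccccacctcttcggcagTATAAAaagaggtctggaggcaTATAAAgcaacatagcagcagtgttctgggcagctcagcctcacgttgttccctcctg
The Pf4 window held 1 GATA match, at 36 bases after the start, and no GCGTG or TATAAA. The Ppbp window held 2 TATAAA matches, at -30 and -8 from the start, and no GATA match or GCGTG. Each window held 4 matches to the ETS core GGAA, which are left in lower case.

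All 8 genes had a promoter entry, and windows of the same length from 32851 RefSeq promoters gave the background. A GATA match was found in 4 of the 8 windows (Pf4, Gp5, Gp1bb and Clec1b), against 29.8% of all promoters. GCGTG was found in 1 of 8, that of Clec1b, against 32.4% of all promoters. TATAAA was found in 2 of 8 (Ppbp and Clec1b), against 13.6%, and GGAA in 8 of 8, against 96%. A match describes letters in these windows and is not a measured binding site.

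The arrays themselves gave these values. Array medians lay between 4.81 and 4.91. Cyp1b1, an AhR target that checks the treatment labels, was at 6.87 and 8.36 in TCDD emigrants 1 and 2, against 4.69 and 6.25 in oil emigrants 1 and 2, and at 8.46 and 9.59 in TCDD thymocytes, against 4.62 and 5.04 in oil thymocytes. The Treatment field of oil emigrants 1 names TCDD, at a concentration of 10 nM that is not the injected dose, while its title names corn oil. Ahrr, a further AhR target, was at 5.19 and 7.65 in TCDD emigrants, against 3.93 and 3.81 in oil emigrants 1 and 2. The brightest probe set of Tiparp, also an AhR target, was at 7.74 and 9.09, against 6.56 and 5.83. Cyp1b1, Ahrr and Tiparp were each lower in oil emigrants 1 than in both TCDD emigrant arrays. The groups follow the titles. The Treatment field of oil emigrants 2 reads Dioxane 2, thymus stands in the Tissue field of 2 emigrant arrays, and the description of the TCDD thymocyte arrays mentions corn oil alone. Over all probe sets, oil emigrants 1 had its highest Spearman rho, 0.989, with TCDD emigrants 1. Between oil emigrants 2 and TCDD emigrants 2 it was 0.969. In thymocytes the oil and TCDD arrays of the same number had a rho of 0.985 (number 1) and 0.986 (number 2). The 2 oil thymocyte arrays had 0.957 with each other and the 2 TCDD thymocyte arrays 0.965. Across sources, oil emigrants 2 had its highest rho, 0.974, with TCDD thymocytes 2. That thymocyte array had 0.975 with oil emigrants 1 and 0.977 with TCDD emigrants 1. Ptcra, which encodes the pre-T-cell receptor alpha chain, was at 5.25 and 5.08 in TCDD emigrants and 5.35 and 7.00 in oil emigrants, with oil emigrants 2 apart, and at 8.95 and 9.45 in TCDD thymocytes and 8.83 and 9.20 in oil thymocytes. Cd4 lay between 4.53 and 5.31, near the array medians. Cd8a was at 6.18 and 6.24 in TCDD emigrants, against 4.57 and 5.84 in oil emigrants. In thymocytes it lay between 5.05 and 7.14. Cd8b1 was at 5.04 and 4.47 in TCDD emigrants, against 3.98 and 3.80 in oil emigrants, and between 4.18 and 5.75 in thymocytes. In emigrants 2 of these 3 genes had no overlap with TCDD higher, against 13.7% of all probe sets. None passed the adjusted p, and the part of cells with CD8 RNA in the platelet values was not tested. The 3′ minus 5′ difference of the actin control probe sets, a sign of RNA length, was 4.68 and 3.79 in TCDD emigrants, 3.92 and 3.34 in oil emigrants, 4.31 and 3.06 in TCDD thymocytes and 4.12 and 3.12 in oil thymocytes, so number 1 was the higher of the pair in every group. The Gapdh controls had 4.97 and 5.32 in TCDD emigrants, 4.81 and 4.91 in oil emigrants, 5.90 and 4.78 in TCDD thymocytes and 6.23 and 4.97 in oil thymocytes, with number 2 the higher in both emigrant groups.

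**Figure D1:**
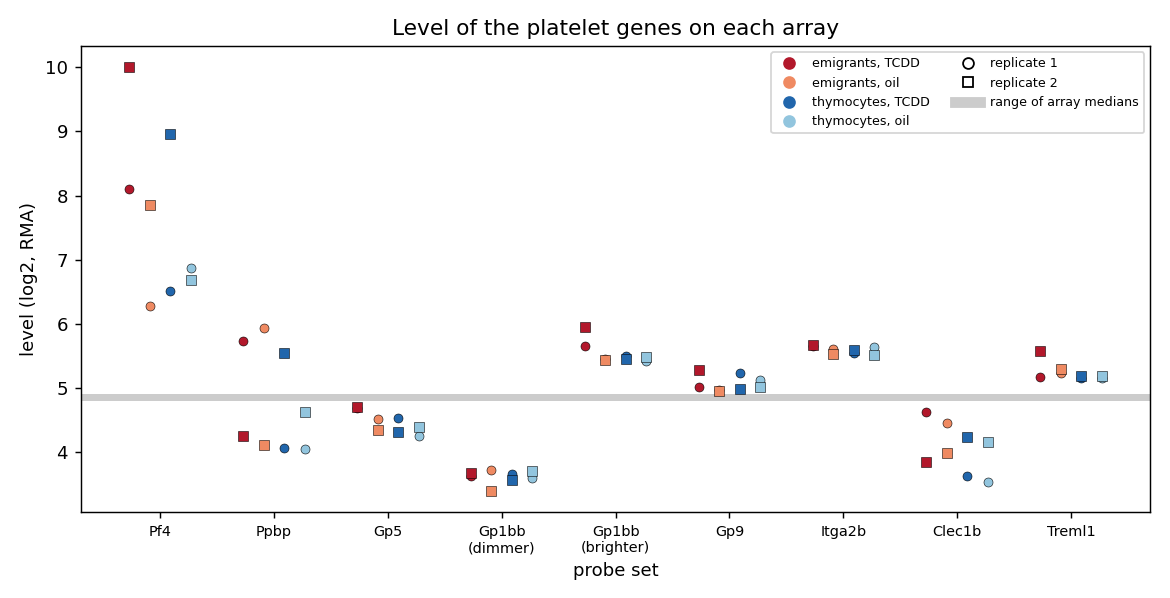
Level of each platelet probe set on each of the 8 arrays (log2, RMA), with circles for arrays numbered 1, squares for arrays numbered 2 and the range of array medians in grey. Pf4 spans 6.27 to 10.0 and Ppbp 4.06 to 5.94, while Itga2b keeps within 5.51 and 5.67.

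Pf4 encodes platelet factor 4 (CXCL4), a chemokine stored in alpha granules that binds heparin. It was at 8.10 and 10.0 in TCDD emigrants 1 and 2 and at 6.27 and 7.85 in oil emigrants 1 and 2. In TCDD thymocytes it was at 6.52 and 8.96 and in oil thymocytes at 6.88 and 6.68. It lay above the array median on all 8 arrays, between the 74.9th and the 97.9th percentile of the probe sets. TCDD emigrants 2 was highest, TCDD thymocytes 2 came next, and the oil thymocyte arrays lay close together.

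The SD of Pf4 over the 8 arrays was 1.32, larger than that of 99.5% of probe sets. The order of its group means was TCDD emigrants, 9.05 ± 1.34, TCDD thymocytes, 7.74 ± 1.73, oil emigrants, 7.06 ± 1.12, and oil thymocytes, 6.78 ± 0.14 (SD, n = 2 each). Each group's range overlapped that of its neighbour in this order, and within TCDD thymocytes the 2 arrays differed by more than any 2 of these neighbouring means.

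Ppbp encodes pro-platelet basic protein, the precursor of the chemokine CXCL7. It was at 5.74 and 4.25 in TCDD emigrants 1 and 2, against 5.94 and 4.12 in oil emigrants. In TCDD thymocytes it was at 4.06 and 5.55, against 4.06 and 4.63 in oil thymocytes. Only oil emigrants 1, TCDD emigrants 1 and TCDD thymocytes 2 lay above their array medians, so each of these 3 groups held 1 high and 1 low array, and the 2 arrays numbered 1 from the emigrants were high together. The group means were 5.00 ± 1.05, 5.03 ± 1.29, 4.81 ± 1.05 and 4.34 ± 0.40 for TCDD emigrants, oil emigrants, TCDD thymocytes and oil thymocytes (SD, n = 2 each), and all neighbours in their order overlapped.

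The pattern of Ppbp over arrays was not rare. The same 3 arrays were the highest for 1030 of the 22626 probe sets (4.55%), and for 272 of the 3345 with an SD of at least 0.5 (8.13%). Among the platelet probe sets only Clec1b shared these 3. Pearson's r between Pf4 and Ppbp over the 8 arrays was -0.0011.

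Gp5, Gp1bb and Gp9 encode glycoprotein V, the beta chain of glycoprotein Ib and glycoprotein IX, which form the von Willebrand factor receptor together with the alpha chain of glycoprotein Ib. Gp5 was at 4.69 and 4.71 in TCDD emigrants, against 4.52 and 4.35 in oil emigrants, and at 4.53 and 4.31 in TCDD thymocytes, against 4.25 and 4.39 in oil thymocytes. Both TCDD emigrant arrays were the highest of the 8, but Gp5 lay below the array median on all 8 arrays. Whether its level exceeded background was not tested.

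The brighter Gp1bb probe set was at 5.66 and 5.95 in TCDD emigrants, against 5.46 and 5.43 in oil emigrants, and at 5.51 and 5.45 in TCDD thymocytes, against 5.43 and 5.48 in oil thymocytes. It lay above the median on all 8 arrays, and the TCDD emigrants were again the highest pair. The dimmer Gp1bb probe set was at 3.63 and 3.68 in TCDD emigrants, against 3.72 and 3.40 in oil emigrants, and at 3.67 and 3.57 in TCDD thymocytes, against 3.60 and 3.71 in oil thymocytes. It lay below the median on all 8 arrays and its groups overlapped in both sources, so the 2 probe sets of Gp1bb did not show the same pattern. The probe set shared with Septin5 was at 3.47 and 3.66 in TCDD emigrants, against 3.54 and 3.42 in oil emigrants, and at 3.58 and 3.60 in TCDD thymocytes, against 3.25 and 3.45 in oil thymocytes.

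Gp9 was at 5.02 and 5.29 in TCDD emigrants, against 4.97 and 4.96 in oil emigrants, and at 5.24 and 4.98 in TCDD thymocytes, against 5.13 and 5.02 in oil thymocytes. All of these lay above the array median, by little, between the 52.0th and the 58.9th percentile.

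Itga2b encodes integrin alpha IIb (CD41), the fibrinogen receptor chain of platelets that early blood progenitors also carry. It was at 5.65 and 5.67 in TCDD emigrants, against 5.61 and 5.53 in oil emigrants, and at 5.56 and 5.60 in TCDD thymocytes, against 5.64 and 5.51 in oil thymocytes. It lay above the median on all 8 arrays, and its SD of 0.0587 was larger than that of only 1.54% of probe sets.

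Clec1b encodes CLEC-2, the platelet receptor for podoplanin. It was at 4.64 and 3.86 in TCDD emigrants, against 4.47 and 4.0 in oil emigrants, and at 3.63 and 4.24 in TCDD thymocytes, against 3.54 and 4.16 in oil thymocytes. It lay below the median on all 8 arrays and differed more between numbers 1 and 2 of a group than between treatments.

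Treml1 encodes TLT-1, a receptor of the alpha granule membrane that reaches the surface on activation. It was at 5.17 and 5.58 in TCDD emigrants, against 5.23 and 5.29 in oil emigrants, and at 5.17 and 5.19 in TCDD thymocytes, against 5.15 and 5.20 in oil thymocytes. TCDD emigrants 2 stood above the other 7 arrays, which lay between 5.15 and 5.29.

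The first comparison asked what TCDD treatment did in the emigrants. Pf4 had a TCDD minus oil difference of 1.99 on the log2 scale, or 3.97-fold (95% interval -0.41 to 4.39, unadjusted limma p of 0.0894, adjusted p = 1.00, n = 2 against 2). Within number 1 the difference was 1.83 and within number 2 it was 2.15. The interval and p include the spread between numbers, and the fit with a block within source is given at the end. The difference of 1.99 was the 9th largest of 22626 differences, of which 41 reached 1 (0.181%). The difference was 1.04 without TCDD emigrants 2, 1.20 without oil emigrants 1, 2.78 without oil emigrants 2 and 2.94 without TCDD emigrants 1. When the Treatment field of oil emigrants 1 was followed in place of its title, it was 0.28.

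The brighter Gp1bb probe set had a difference of 0.36 (95% interval 0.01 to 0.71, unadjusted limma p of 0.0461, adjusted p = 1.00), the only platelet probe set with an unadjusted limma p under 0.05. It was 0.21 without TCDD emigrants 2, and 0.23 when the probe sets of the gene were averaged. Gp5 had a difference of 0.26 (-0.09 to 0.61), Gp9 of 0.18 (-0.20 to 0.57), Treml1 of 0.11 (-0.29 to 0.51), the dimmer Gp1bb probe set of 0.10 (-0.28 to 0.47) and Itga2b of 0.09 (-0.21 to 0.39). Clec1b, at 0.02 (-0.89 to 0.92), and Ppbp, at -0.03 (-2.0 to 1.93), had the smallest differences and, with Pf4, the widest intervals.

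In the emigrants 0 of 9 probe sets passed an adjusted p of 0.05, as did 0 of all 22626 (0%), and 1 of 9 had an unadjusted limma p under 0.05, against 273 of all (1.21%). The TCDD arrays were both above the oil arrays for 5 of 9 (Pf4, Gp5, the brighter Gp1bb probe set, Gp9 and Itga2b), against 13.7% of all probe sets. Both lay below for 0 of 9, against 10.9%. The difference was positive in 8 of 9, against 53.7%, and in number 1 and number 2 alike in 5 of 9, against 25.7%. The median of the 9 differences was 0.11, beside 0.02 over all probe sets. With 2 arrays against 2, an exact permutation test of a single probe set cannot go below a two-sided p of 0.333.

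**Figure D2:**
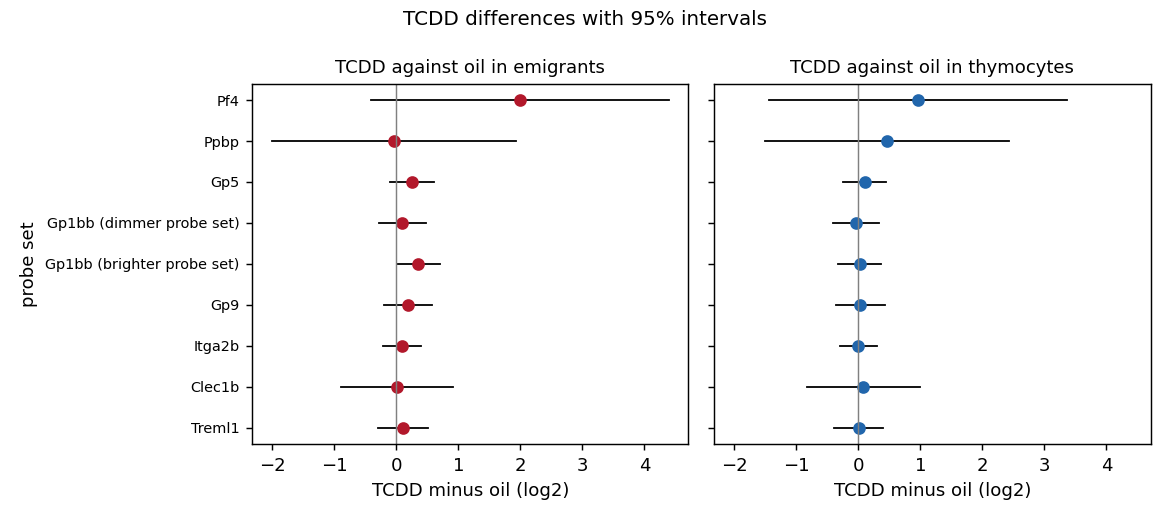
TCDD minus oil difference of each platelet probe set (log2) in emigrants (left) and thymocytes (right); points are limma estimates and bars 95% intervals, with n = 2 against 2 arrays. The interval of the brighter Gp1bb probe set in emigrants, 0.01 to 0.71, is the only one that leaves out 0, and those of Pf4 and Ppbp are the widest.

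The same question was asked in the thymocytes. Pf4 had a TCDD minus oil difference of 0.96, or 1.95-fold (95% interval -1.44 to 3.36, unadjusted limma p of 0.368, adjusted p = 1.00), and the difference was -0.36 within number 1 and 2.28 within number 2. It was -0.26 without TCDD thymocytes 2 and 2.18 without TCDD thymocytes 1, so its direction rested on TCDD thymocytes 2. Ppbp, with a difference of 0.46 (-1.5 to 2.43), likewise had TCDD thymocytes 2 as its high array, and its difference was -0.28 without it. The other 7 probe sets had differences between -0.03 and 0.10.

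Of the 9 probe sets in thymocytes, 0 passed the adjusted p (0% of all) and 0 had an unadjusted limma p under 0.05, against 313 of all probe sets (1.38%). The TCDD arrays were both above the oil arrays for 0 of 9, against 9.7% of all, and both below for 0 of 9, against 11%. The difference was positive in 8 of 9, against 48.8%, and positive within both numbers in 2 of 9, against 25.4%. The median of the 9 was 0.04, beside -0.00 over all probe sets.

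Whether TCDD acted differently in emigrants and thymocytes was tested as the difference of both TCDD effects. For Pf4 it was 1.03 (95% interval -2.37 to 4.43, unadjusted limma p of 0.489, adjusted p = 1.00), an interval wide enough to hold both no difference and one larger than the emigrant effect itself. It was -0.19 without TCDD thymocytes 1 and 2.25 without TCDD thymocytes 2, so its direction rested on TCDD thymocytes 1. Without 1 emigrant array it was 0.08 (TCDD emigrants 2), 0.24 (oil emigrants 1), 1.82 (oil emigrants 2) or 1.98 (TCDD emigrants 1). The brighter Gp1bb probe set had 0.33 (-0.16 to 0.83) and Ppbp -0.50 (-3.28 to 2.28). The value was positive in 7 of 9, against 54.6% of all. Of the 9 probe sets 0 had an unadjusted limma p under 0.05, against 289 of all (1.28%), and 0 passed the adjusted p (0% of all).

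Averaged over both sources, Pf4 had a TCDD minus oil difference of 1.48, or 2.78-fold (95% interval -0.22 to 3.17, unadjusted limma p of 0.0780, adjusted p = 1.00). The other 8 probe sets had averaged differences between 0.03 and 0.21, with Ppbp at 0.21, the brighter Gp1bb probe set at 0.19 and Gp5 at 0.18. All 9 were positive, against 52.7% of all probe sets, and 0 of 9 had an unadjusted limma p under 0.05, against 285 of all (1.26%), or passed the adjusted p (0% of all). In none did all 4 TCDD arrays lie above all 4 oil arrays, against 0.526% of all, or below them, against 0.305%.

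The emigrants were then set against the thymocytes. Under TCDD, Pf4 was higher by 1.31 in emigrants (95% interval -1.09 to 3.72, unadjusted limma p of 0.231, adjusted p = 0.844), a difference that was 0.09 without TCDD thymocytes 1 and 2.54 without TCDD thymocytes 2. Gp5 had a difference of 0.27 (-0.08 to 0.63), the brighter Gp1bb probe set of 0.33 (-0.02 to 0.68) and Itga2b of 0.09 (-0.21 to 0.39), and these 3 of 9 had both emigrant arrays above both thymocyte arrays, against 20.6% of all probe sets, while 0 of 9 had both below, against 15.1%. All 9 differences were positive, against 57% of all. The unadjusted limma p was under 0.05 for 0 of 9, against 1683 of all (7.44%), and 0 passed the adjusted p (0% of all). The median of the 9 was 0.20, beside 0.04 over all.

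Under oil the difference of the emigrants from the thymocytes was 0.28 for Pf4 (95% interval -2.12 to 2.69) and -0.01 for the brighter Gp1bb probe set (-0.35 to 0.34). That of Pf4 was -0.50 without oil emigrants 2 and 1.07 without oil emigrants 1. Ppbp had 0.69 (-1.28 to 2.66), which was -0.22 without oil emigrants 1 and 1.60 without oil emigrants 2, so the directions of Pf4 and Ppbp each rested on 1 array. Clec1b had 0.38 (-0.52 to 1.28), and Gp9 had -0.11 (-0.49 to 0.28). Treml1 alone had both emigrant arrays above both thymocyte arrays, 1 of 9 against 19.9% of all, and Gp9 alone had both below, 1 of 9 against 18.8%. The difference was positive in 5 of 9, against 51.6%. The unadjusted limma p was under 0.05 for 0 of 9, against 2024 of all (8.95%), and 0 passed the adjusted p (0% of all). The comparisons under TCDD and under oil share no arrays with each other, but each shares arrays with the TCDD comparisons above.

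Averaged over treatments, 14 of 22626 probe sets passed the adjusted p (0.0619%), the smallest being 0.0185, and 0 of 9 platelet probe sets did. Pf4 had a difference of 0.80 (95% interval -0.90 to 2.5, adjusted p = 0.655) that ranged from 0.19 to 1.41 when 1 array was left out, Ppbp of 0.44 (-0.95 to 1.83), which was -0.02 without oil emigrants 1, Clec1b of 0.35 (-0.29 to 0.98) and Gp5 of 0.19 (-0.06 to 0.44, adjusted p = 0.460, the smallest of the 9). An unadjusted limma p under 0.05 was found for 0 of 9, against 3199 of all (14.1%). The difference was positive in 7 of 9, against 55.3%, and no probe set had all 4 emigrant arrays above all 4 thymocyte arrays, against 6.12% of all, or below them, against 5.64%. The median of the 9 was 0.16, beside 0.03 over all. In bulk RNA of sorted cells, more platelets or platelet fragments among the sorted cells and more platelet RNA per cell cannot be told apart. Expression of these genes by other cells cannot be told apart from either.

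The genes did not form a single pattern over the arrays. Over the 28 pairs of genes, with Gp1bb by its brighter probe set, Pearson's r over the 8 arrays ran from -0.68, between Clec1b and Gp9, to 0.90, between Clec1b and Ppbp. Gp1bb had an r of 0.82 with Treml1, 0.81 with Gp5 and 0.71 with Pf4, and Pf4 had an r of 0.70 with Treml1. The arrays share groups and were normalized together, and TCDD emigrants 2 was highest for Pf4, Gp5, Gp9, Itga2b, Treml1 and the brighter Gp1bb probe set, so these values describe the 8 arrays only.

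By the rule used for likeness, which took the probe sets with an SD of at least 0.5 and the highest r with Pf4 over the 8 arrays, the 5 most like Pf4 belonged to 4 genes. They were Ier3, an immediate early gene (r = 0.900), Serpinb1a, an inhibitor of neutrophil proteases, with 2 probe sets (r = 0.898 and 0.877), Tiparp, an ADP-ribosyltransferase and known AhR target (r = 0.881), and Gng12, a G protein gamma subunit (r = 0.858). The Tiparp probe set was at 8.03 and 9.46 in TCDD emigrants, against 6.23 and 5.98 in oil emigrants, and at 5.36 and 7.57 in TCDD thymocytes, against 5.05 and 4.74 in oil thymocytes. Like Pf4 it had TCDD emigrants 2 as its highest array and TCDD thymocytes 2 well above TCDD thymocytes 1. Tiparp was chosen for its r with Pf4 over these same arrays, so this likeness follows from the choice and is not a separate result.

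**Figure D3:**
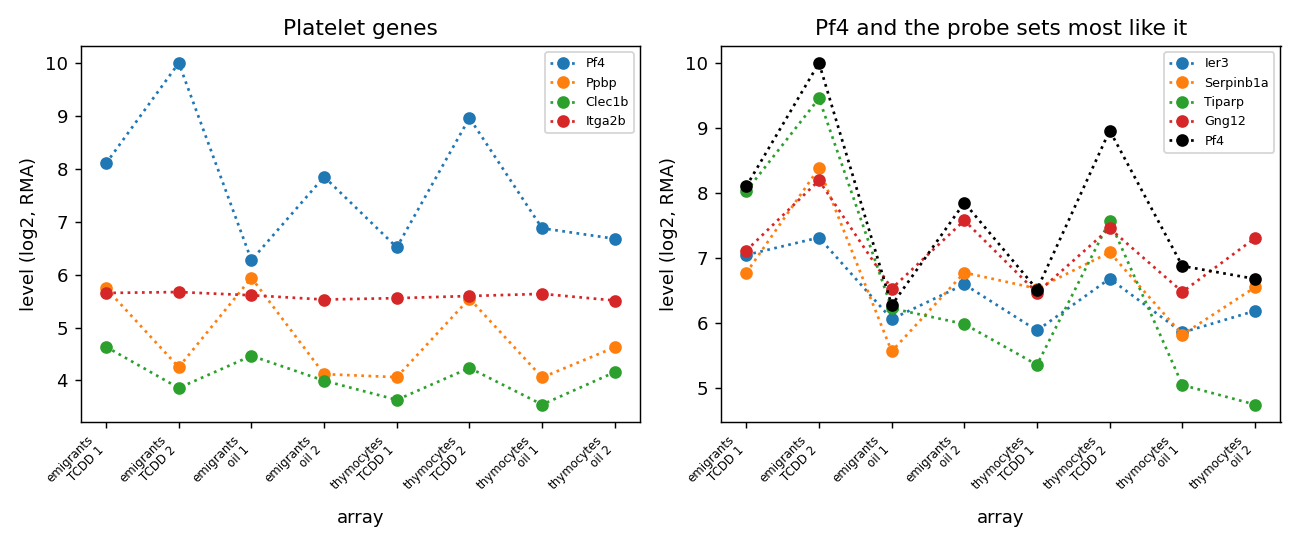
Levels (log2, RMA) on each of the 8 arrays of Pf4, Ppbp, Clec1b and Itga2b (left) and of Pf4 beside the probe sets most like it (right; the first probe set of each gene); dotted lines join the arrays only to guide the eye. Pf4 peaks at 10.0 in TCDD emigrants 2, where Ppbp is at 4.25 and Clec1b at 3.86.

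Further genes of platelets and megakaryocytes were taken from 4 lists of 72 symbols in all, of which 57 were measured and 25 lay above the median on all 8 arrays. In no comparison did any of the 57 pass the adjusted p. In the emigrants, TCDD against oil, 10 of the 57 had no overlap with TCDD higher (13.7% of all probe sets) and 3 with TCDD lower (10.9% of all). The median was 0.10, beside 0.02 over all probe sets. An unadjusted limma p under 0.05 was found for 1 with a positive difference and 1 with a negative one, against 1.21% of all in either direction. The positive one was Plcg2, a phospholipase that signals below platelet receptors (0.87, unadjusted limma p of 0.0298, adjusted p = 1.00), and the negative one was Fli1, an ETS family regulator of megakaryocyte genes (-0.86, unadjusted limma p of 0.0170, adjusted p = 1.00). Fli1 was at 5.70 and 4.95 in TCDD emigrants, against 6.18 and 6.19 in oil emigrants, so both TCDD arrays were lower.

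Platelet surface receptors other than the 8 genes had 16 measured members, with a median of 0.00 for TCDD against oil in emigrants and no gene whose TCDD and oil arrays did not overlap. Selp, P-selectin of the alpha granule, had a difference of 0.19, P2ry12, an ADP receptor, of 0.12, Ptger3, a prostaglandin E receptor, of 0.18, and Tbxa2r, the thromboxane receptor, of -0.16. Granule cargo, enzymes and signalling proteins had 23 measured members and a median of 0.13. Of these 15 were positive, against 53.7% of all probe sets, 9 had no overlap with TCDD higher, against 13.7%, and 1 had none with TCDD lower, against 10.9%. By the size of p the list was led by Plcg2, given above, and by 3 genes with negative differences. Plek, the protein kinase C substrate pleckstrin, had -0.63, Rgs18, a regulator of G protein signalling, -0.45, and Rap1b, a small GTPase, -0.32. Cytoskeletal genes had 7 measured members, 5 of them positive, against 53.7% of all probe sets, and a median of 0.07. Tpm4, a tropomyosin, had -0.28, Pdlim1, a PDZ and LIM domain protein, -0.29, Tln1, the integrin-binding protein talin 1, 0.33 and Flna, the actin crosslinker filamin A, 0.12. Tln1 was at 5.65 and 6.35 in TCDD emigrants, against 5.71 and 5.62 in oil emigrants, so the groups overlapped and TCDD emigrants 2 alone was high.

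Regulators of megakaryocytes had 11 measured members, 8 of them positive, against 53.7% of all probe sets, and a median of 0.12. Beside Fli1, Etv6, an ETS family repressor, had a difference of 0.39 and Lyl1, a helix-loop-helix factor, of 0.21. Nfe2, which platelet release requires, had a difference of 0.77 and was at 5.75 and 4.41 in TCDD emigrants, against 4.69 and 3.93 in oil emigrants. In the thymocytes the 57 genes had a median of -0.00 for TCDD against oil, beside -0.00 over all probe sets. None had an unadjusted limma p under 0.05, against 1.38% of all.

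For emigrants against thymocytes, averaged over treatments, 8 of the 57 had a positive difference and an unadjusted limma p under 0.05 and 4 a negative one, against 14.1% of all probe sets in either direction. The median was 0.14, beside 0.03 over all. Rap1b, an abundant GTPase of platelets and of many other cells, was at 11.1 and 11.2 in TCDD emigrants and 11.4 and 11.6 in oil emigrants, and at 10.6 and 10.6 in TCDD thymocytes and 10.4 and 10.6 in oil thymocytes. Its difference was 0.76 (limma adjusted p = 0.0614). Tpm4 had 0.69 (adjusted p = 0.0674), Pear1, a platelet endothelial aggregation receptor, 0.69 (adjusted p = 0.157), Zfpm1, the GATA1 partner FOG-1, 0.55 (adjusted p = 0.142), Tln1 0.52 (adjusted p = 0.287), Runx1 0.46 (adjusted p = 0.274), Fli1 0.49 (adjusted p = 0.320) and Cd36, a scavenger receptor, 1.43 (adjusted p = 0.320), all by limma. Pdlim1 had -0.71 (limma adjusted p = 0.103), Syk, a kinase below CLEC-2 and B cell receptors, -0.94 (adjusted p = 0.178), Lat, an adaptor of T cells and platelets, -0.77 (adjusted p = 0.180) and F5, coagulation factor V, -0.43 (adjusted p = 0.349). Most of these genes are also used in other blood cells.

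Marker genes of other cell types were followed on the same arrays, and none passed the adjusted p in any comparison. Of 12 measured macrophage and monocyte genes, 8 had a positive TCDD minus oil difference in emigrants, against 53.7% of all probe sets, with a median of 0.26. Their mean level was 6.24 and 7.01 in TCDD emigrants, against 5.88 and 6.89 in oil emigrants, and 5.61 and 5.99 in TCDD thymocytes, against 5.82 and 6.04 in oil thymocytes. Its r with Pf4 over the 8 arrays was 0.72. Other list means with an r with Pf4 included coreceptor genes (0.57), mast cells and basophils (0.53) and platelet surface receptors (0.40). For T cell and thymocyte genes it was -0.52. Csf1r, the receptor for macrophage colony-stimulating factor, was at 10.3 and 10.6 in TCDD emigrants, against 9.71 and 9.81 in oil emigrants (difference 0.69, unadjusted limma p of 0.0279, adjusted p = 1.00). Next by the size of p were Lyz2, with a difference of 0.78, and Marco and Ccr2, with negative differences of -0.25 and -0.45. None of the 12 lay below the median on all 8 arrays, and the part of such cells in the Pf4 values was not tested.

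Red cell genes had 13 of 13 positive differences in emigrants, against 53.7% of all probe sets, with a median of 0.49, and 3 of 13 had no overlap with TCDD higher, against 13.7% of all. Their mean level was 6.36 and 5.11 in TCDD emigrants, against 5.80 and 4.82 in oil emigrants, and between 4.76 and 4.91 in the 4 thymocyte arrays. Emigrants numbered 1 were the higher in both treatments, which is the order of Ppbp and the reverse of Pf4, and the r of the list's mean was -0.04 with Pf4 and 0.68 with Ppbp. Car2, a carbonic anhydrase, was at 10.4 and 9.10 in TCDD emigrants, against 9.58 and 7.73 in oil emigrants. The r with Ppbp was not particular to red cell genes. It was 0.67 for the list mean of megakaryocyte regulators and 0.69 for that of blood stem cell and early progenitor genes.

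Granulocyte genes had 13 of 13 positive differences in emigrants, against 53.7% of all probe sets, with a median of 0.81, and 4 of 13 had no overlap with TCDD higher, against 13.7% of all. Their mean level was 8.08 and 5.53 in TCDD emigrants, against 6.06 and 5.76 in oil emigrants, so TCDD emigrants 1 alone stood high, and it was 7.20 and 6.04 in TCDD thymocytes, against 7.24 and 6.65 in oil thymocytes. Its r was -0.40 with Pf4 and 0.12 with Ppbp. T cell and thymocyte genes had a median of -0.45 in emigrants, TCDD against oil, with 2 of 12 positive, against 53.7% of all probe sets. The part of red cells, granulocytes and T cells in the values of the platelet genes was not tested.

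**Figure D4:**
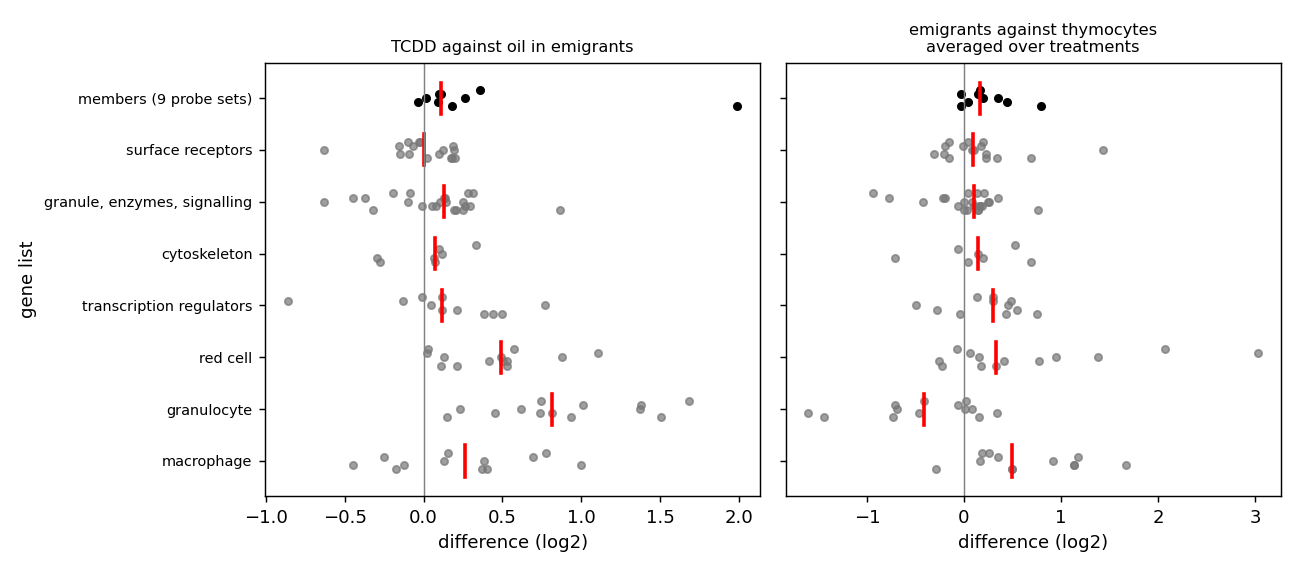
Difference of each measured gene (points, log2) and median (red line) for the 9 platelet probe sets and 7 gene lists, for TCDD against oil in emigrants (left) and for emigrants against thymocytes averaged over treatments (right). Pf4, at 1.99 on the left, lies far from the other 8 platelet probe sets, which lie between -0.03 and 0.36, and the medians of the 4 further platelet lists there lie between 0.00 and 0.13.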

How the data were processed

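Expression was measured in 8 samples, 2 in each group; RNA was amplified before hybridisation, per the labels' protocols. The values that the authors deposited are on a log2 scale, 1 for each of 22690 probe sets, and the submitters' processing notes name RMA with no version. RMA makes the distributions of the arrays alike, so a shift shared by most genes would not be seen, and it compresses differences of dim probe sets. No detection call was used, and the number of arrays limits the precision.

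After 64 control probe sets were left out, 22626 were tested with no filter on dim ones, by limma 3.58.1 in R 4.3.3 (a mean per group fitted to all arrays with lmFit, then eBayes; two-sided; 4 residual degrees of freedom; Benjamini-Hochberg; threshold 0.05). Gene symbols come from the platform's annotation table and were brought up to date by gene identifier with RefSeq names of GRCm38.p6 (20364 of 20393 with 1 symbol matched). Another 691 had several symbols and 1606 none. Genes of the lists were represented by the probe set with the highest mean. Figures were drawn with matplotlib 3.10.9 in Python 3.11.15. The code was tested on simulated data.

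The genes and lists were chosen with earlier results of these data known. All probe sets of the 8 genes are named, genes of each further list from among the 4 with the smallest p in the comparison described, and the 5 probe sets most like Pf4, the only gene with an SD of at least 1. Replicate numbers were checked for pairing through the correlation of same-numbered arrays' deviations from their group means, which was 0.523 in emigrants and 0.734 in thymocytes but between -0.146 and 0.123 across sources. The pairs across sources were not all above 0.1, so the numbers were not used as a block. Within each source the same-numbered arrays did deviate together. The intervals and p-values of the TCDD comparisons therefore include the spread between numbers. Alternatives were 2 other scalings, testing brighter probe sets only, 1 or averaged probe sets per gene, another eBayes prior, replicate blocks, only the arrays compared, the Treatment field of oil emigrants 1, and leaving out each array. When an array was left out, its partner was taken to vary like the arrays in the remaining groups.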

Additional observations from a re-analysis of the deposited data

How the results depend on the processing

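No platelet probe set passed the adjusted p in any setting that gave its value, where the smallest adjusted p was 0.0779, and 35 of the 1065 such values moved by at least the residual SD of their probe set. For emigrants against thymocytes averaged over treatments, the 14 probe sets called among all became 35 after a repeated quantile normalization, 109 with brighter probe sets only, 69 with the probe sets of a gene averaged, 8 with trend and robust settings and 88 with the Treatment field followed, and they were 76 without TCDD emigrants 1, 48 without oil emigrants 2, 2 without oil emigrants 1 and 0 without TCDD emigrants 2 or any single thymocyte array. Where the count was 0 with all arrays, it was 1 (trend and robust settings) or 16 (Treatment field) and 0 to 14 when 1 array was left out for the source comparison under TCDD, 1 (probe sets averaged) or 1 (Treatment field) for that under oil, 1 (Treatment field) for TCDD in emigrants and for the difference of the TCDD effects, and 0 to 1 when 1 array was left out for TCDD averaged over sources. The Treatment field also took the median of the platelet probe sets in emigrants to 0.28, and this median ranged from 0.11 to 0.27 when 1 array was left out. The same medians ranged from -0.01 to 0.05 for TCDD in thymocytes, 0.09 to 0.21 and -0.02 to 0.11 for the source comparisons under TCDD and oil, 0.09 to 0.17 for their average, 0.06 to 0.20 for TCDD averaged over sources and 0.07 to 0.24 for the difference of the TCDD effects. The causes were not tested.

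The labels link same-numbered arrays by the number alone. Their deviations from the group means correlated within each source (r = 0.523 in emigrants and 0.734 in thymocytes). With the replicate number as a block, 226 probe sets were called for the averaged source comparison, and with a block within each source 2959, with 361 under TCDD, 1169 under oil, 1 for TCDD in thymocytes and 1 for TCDD averaged over sources; the within-source block leaves the spread between numbers out of the error of the source comparisons. With a block within source, Pf4 had an unadjusted limma p of 0.0175 in emigrants (adjusted p = 0.848). With the thymocyte numbers crossed, an alternative chosen after seeing the data, 234 were called for the averaged source comparison. Not every same-numbered pair of arrays deviated together. Without a detection call, no level was tested against background, whether above or below the array medians.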
